A study of Mus musculus with 2 samples.

Results

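The 51 genes described here encode hydrolases, membrane proteins and cation channels of the lysosome, the transcription factors of the TFEB family, and core proteins of autophagy. They were chosen by name, with earlier results of these data known. By gene symbol, 51 of 51 were found among the 27179 genes of the count table. RNA sequencing gave their transcript levels in cells of ALL65, which is a primary T cell acute lymphoblastic leukaemia (T-ALL) carrying the transgenes Vav-tTA and TRE-GFP-shIkaros. The Vav promoter directs the tetracycline transactivator to blood cells, and the transactivator switches on a hairpin against Ikaros, a zinc finger transcription factor encoded by Ikzf1, together with green fluorescent protein (GFP). Both groups carry these transgenes and come from the spleens of leukaemic recipient mice. In the Dox group the mice were given doxycycline for 3 days, which shuts off the hairpin and restores Ikaros from the cells' own gene, and GFP-mid cells were sorted. In the untreated group the hairpin stayed on, and GFP-high cells were sorted. The sort gate therefore differs together with the treatment, and their parts cannot be told apart. ALL65 is 1 leukaemia. RNA came from 3 mice per group, but the deposited table has a single column for each group, so the spread between mice cannot be seen. The labels state neither age nor strain of the recipients.

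Lysosomes are acidic organelles that break down proteins, glycans, lipids and nucleic acids delivered from the cell surface or by autophagy, in which a membrane closes around part of the cytoplasm and fuses with the lysosome. Many of their enzymes are made as precursors in the endoplasmic reticulum and reach the lysosome by the mannose 6-phosphate pathway. The factors TFEB, TFE3 and MITF bind E-box sequences in the promoters of lysosomal and autophagy genes. They are kept in the cytoplasm by mTORC1, a kinase complex that senses amino acids on the lysosomal surface. In T cells, this system clears damaged mitochondria, turns over surface receptors and supplies amino acids when nutrients are short.

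With 1 library for each group there is no replicate error behind the values, and differences carry neither a test nor a p-value. The Dox library held 14457475 counts and the untreated library 7477988. Levels are given as CPM, a gene's counts per 1000000 counts of the scaled library. The detection limit, at 3 counts, was 0.211 CPM in the Dox library and 0.395 CPM in the untreated library. Ratios are log2 of Dox over untreated with a prior count of 2, and the range in brackets is the exact 95% Clopper-Pearson counting interval without that prior. These intervals and limits cover counting error only. Ikzf1, the target of the hairpin, stood at 1455 CPM in the Dox library, against 262 CPM in the untreated library, with a ratio of 2.47 (2.41 to 2.54). The defining T cell genes were abundant in both libraries, with Lck at 1156 and Cd3e at 244 CPM in the Dox library, against 1338 and 260 CPM in the untreated library. Of 12 T lineage markers, 11 were measured, and 7 of their ratios were above 0 and 4 below. Among all genes averaging 1 CPM or more, 51.2% had a ratio above 0. Past 1.5-fold were Cd8b1 at 2.40-fold, Cd4 at 1.78-fold, Cd8a at 1.74-fold and Cd247 at 1.71-fold, all higher with Dox. Of all genes whose higher library reached 5 CPM, 6.28% were 1.5-fold or more higher and 6.18% as much lower. Ptcra had 0 counts with Dox and 3 without. In bulk libraries such as these, fewer cells of a type and less RNA per cell cannot be told apart.

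The listed lysosome and autophagy transcripts stood slightly higher in the Dox library, and a few members lay far from the rest. Because the list was drawn up with earlier results of these data known, its differences from all genes only describe it. Of the 51 genes, 48 reached 1 CPM on average over both libraries. Their median log2 ratio was 0.25, beside 0.01 over the 11498 genes with such a level. Ratios were above 0 for 37 of the 48 members and below 0 for 11, while 51.2% of the 11498 genes had a ratio above 0. The counting interval lay wholly above 0 for 25 of these members and wholly below 0 for 4, beside 24.8% and 22.3% of the 11498 genes. Members and all genes had a similar median level, 39.5 and 39.0 CPM in the mean. The counts of all 51 members together came to 3752 CPM in the Dox library and 3144 CPM in the untreated library, a ratio of 0.25 (0.23 to 0.28).

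A minimum of 5 CPM in whichever library was higher left 45 members. Of these, 5 were at least 2-fold higher in the Dox library and 1 was at least 2-fold lower, while 2.21% of 10113 genes were as much higher and 2.24% as much lower. At 1.5-fold, 9 members were higher and 1 was lower, and the shares of all genes were 6.28% and 6.18%. With total counts as the scale, Tfeb stood just short of 2-fold, at a log2 ratio of 0.99, and its lowest ratio over all varied settings was 0.93. The higher members were Mcoln3, Arsb, Ctss, Lgmn, Tfeb, Lipa, Scarb2, Gabarap and Ctsc, and the lower member was Tfe3. Mcoln3, Arsb and Ctss passed the 5 CPM minimum through the Dox library alone, although their means of 12.7, 6.62 and 5.84 CPM also exceeded it. Just inside the 1.5-fold line were Ctsc at 1.51-fold and Gabarap at 1.54-fold higher, and just outside it were Mcoln2 at 1.49-fold lower and Ctsl at 1.46-fold higher. With total counts as the scale, Ctsc and Gabarap stood under the line, at log2 ratios of 0.54 and 0.58, and Mcoln2 past it. Of the 10 genes past this line, Mcoln3 alone overlaps another counted gene of the RefSeq annotation, Wdr63, which had 1 count in each library.

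**Figure D1:**
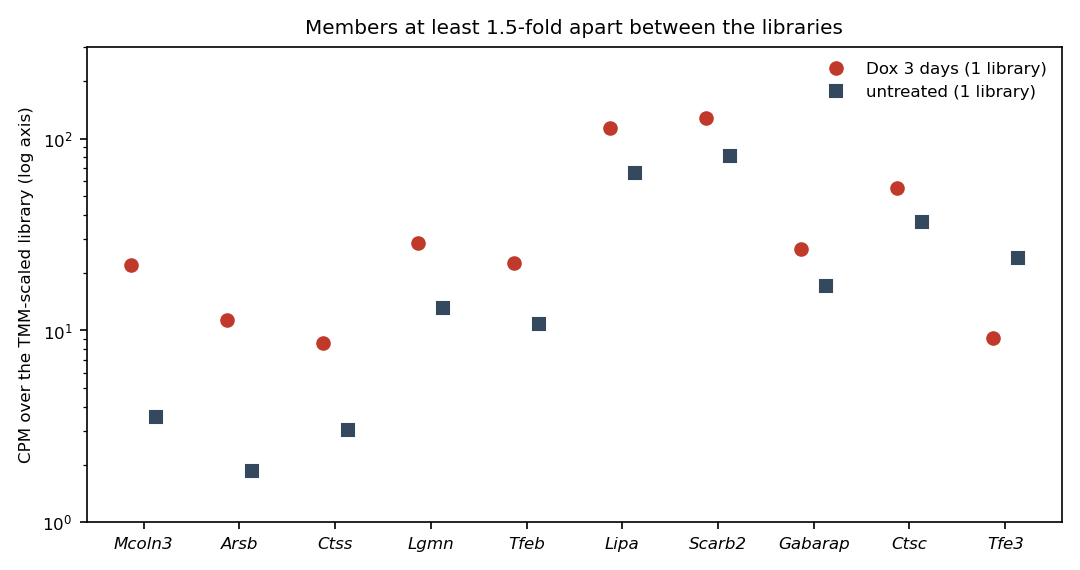
Level in CPM (log axis) of the 10 members at least 1.5-fold apart, with the Dox library as circles and the untreated library as squares, 1 library each and no error bars. Mcoln3 and Arsb are the most widely separated, at 21.9 against 3.55 CPM and 11.4 against 1.84 CPM, and Tfe3 is the only gene shown with its circle below its square.

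Among the transcription factors, Tfeb and Tfe3 differed in opposite directions, so that their order was reversed between the libraries. Tfeb, a main activator of lysosomal genes, stood at 22.4 CPM in the Dox library, against 10.8 CPM in the untreated library, from 318 and 82 counts. This was a 2.05-fold higher level (log2 ratio 1.04, 0.70 to 1.42). Tfe3, its close relative on the X chromosome, stood at 9.14 CPM in the Dox library, against 23.9 CPM in the untreated library, from 130 and 182 counts. This was a 2.59-fold lower level (log2 ratio -1.37, -1.73 to -1.06). It ranked 142 from the lowest among the 10113 genes past the minimum. Mitf, the melanocyte and macrophage member, had 3 counts in the Dox library and 0 in the untreated library, which is at or under the detection limit of both.

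Per length, the family's total was nearly equal in both libraries, at 10.7 CPM per kilobase with Dox and 11.1 without. Tfeb made up 73.6% of this total in the Dox library, against 34.3% in the untreated library. The level of Tfeb per length was 2.83 times that of Tfe3 with Dox, whereas without Dox Tfe3 stood at 1.92 times Tfeb.

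The sequences bound by this family were looked for in RefSeq promoter windows of GRCm38.p6, the assembly behind mm10, each reaching from 250 bases before a gene's start to 50 after it. Windows were given for 43 of the 51 members, 51 windows in all. The annotated start behind a window was the first base of the gene's RefSeq span in 31 of them and lay inside that span in 20. The E-box CACGTG, which reads the same on both strands, was found in 14 of these 51 windows (27.5%), beside 7.15% of the 32851 windows of all genes. Its extended form TCACGTGA, every match of which is also a match of CACGTG, was found in 4 member windows (7.84%), beside 0.974% of all. TGGGAA, which holds the core that Ikaros recognizes, was found on either strand in 8 member windows (15.7%), beside 25.6% of all. The members with CACGTG were Arsa, Atg5, Atg7, Ctsa, Ctsd, Ctsl, Gaa, Gla, Glb1, Lamp1, Lgmn, Mcoln1, Mcoln2 and Naglu. Their median log2 ratio was 0.20, beside 0.27 for the 27 measured members whose windows lack it. Lgmn was the only 1 of the 14 past 1.5-fold. Of all genes whose higher library reached 5 CPM, 6.28% were as much higher and 6.18% as much lower. The windows of Mcoln3, Arsb, Ctss, Tfeb, Tfe3, Lipa, Scarb2, Gabarap and Ctsc do not hold these letters. For Mcoln3 the start of the only window lies 28.5 kb inside the gene's span.

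The following stretches show how the E-box sits in member promoters. They run 5′ to 3′ on the gene's strand, and capitals mark CACGTG or, for Ctsa, Ctsd and Gla, TCACGTGA. Lamp1 holds 4 copies within its last 61 bases before the start (chr8:13159091-13159160, plus strand), Ctsd 1 extended copy (chr7:142387908-142387937, minus strand) and Gla 2 (chrX:134601215-134601244 and chrX:134601182-134601211, minus strand). Ctsa has 1 of its 2 extended copies 13 bases before the downstream of its annotated starts (chr2:164833749-164833772, plus strand), and Lgmn has its copy 49 bases before the downstream of its 2 (chr12:102439124-102439153, minus strand).
Lamp1: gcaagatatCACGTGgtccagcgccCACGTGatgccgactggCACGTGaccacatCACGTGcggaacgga
Ctsd: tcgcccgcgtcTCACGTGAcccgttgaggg
Gla, distal copy: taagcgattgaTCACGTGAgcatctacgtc
Gla, proximal copy: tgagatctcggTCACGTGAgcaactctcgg
Ctsa: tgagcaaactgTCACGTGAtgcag
Lgmn: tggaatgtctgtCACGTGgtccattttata
These promoters belong to genes with quite different ratios. The log2 ratio was 0.25 for Lamp1, 0.38 for Ctsd, 0.03 for Gla, 0.17 for Ctsa and 1.13 for Lgmn.

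Tfeb is 1 of the 8 members with TGGGAA, beside Gabarap, Gabarapl1, Gabarapl2, Galc, Neu1, Sqstm1 and Wipi1. The 7 measured ones had ratios from -0.12 (Neu1) to 1.04 (Tfeb), and 2 of them, Tfeb and Gabarap, were past 1.5-fold. The median of the 7 was 0.36, beside 0.25 for the 34 measured members whose windows lack TGGGAA. The 120 bases before the most upstream annotated start of Tfeb (chr17:47736917-47737036, plus strand) hold TGGGAA once, on the opposite strand, marked in capitals. The letters were not found in the windows of Tfe3, whose starts lie 131 and 1413 bases inside its span.
Tfeb: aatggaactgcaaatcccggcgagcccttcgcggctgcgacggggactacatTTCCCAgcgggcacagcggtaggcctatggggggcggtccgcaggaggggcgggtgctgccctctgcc
A match to these letters is a description of the sequence, since binding was not measured.

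Of the channels of the lysosomal membrane, Mcoln3 stood apart from its relatives. The mucolipins Mcoln1, Mcoln2 and Mcoln3 encode TRPML channels that release calcium and other cations from endosomes and lysosomes. Mcoln3 had 311 counts in the Dox library and 27 in the untreated library, or 21.9 and 3.55 CPM. This was a 5.90-fold higher level (log2 ratio 2.56, 2.05 to 3.25). It ranked 8 from the highest of 10113 genes, next to Arsb at 9 and Ikzf1 at 10. Mcoln1, the family member mutated in mucolipidosis type IV in humans, was at 30.1 CPM with Dox and 30.7 CPM without, with a ratio of -0.03 (-0.26 to 0.21). Mcoln2, a family member of lymphoid and myeloid cells, was at 4.01 and 6.05 CPM, from 57 and 46 counts, with a ratio of -0.57 (-1.18 to -0.002).

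Mcoln2 and Mcoln3 are neighbours on chromosome 3, separated by 7.99 kb, and their ratios had opposite signs. Per length, Mcoln3 made up 43.6% of the mucolipin total with Dox, against 10.6% without, and Mcoln1 51.3%, against 77.9%. The family total was 29.3 CPM per kilobase in the Dox library and 19.7 in the untreated library. Mcoln3 per length reached 8.50 times Mcoln2 in the Dox library, whereas it was at 0.914 times Mcoln2 in the untreated library.

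The E-box is shown for the mucolipins that hold it, in capitals. The 120 bases before the start of Mcoln1 (chr8:3500399-3500518, plus strand) hold 2 copies of CACGTG. The window of Mcoln2 holds 1 (chr3:146150090-146150119, plus strand), before an annotated start that lies 378 bases inside the gene's span. The only window given for Mcoln3 holds none, but its start lies 28.5 kb inside the span, so the sequence before the first base of the gene was not searched.
Mcoln1: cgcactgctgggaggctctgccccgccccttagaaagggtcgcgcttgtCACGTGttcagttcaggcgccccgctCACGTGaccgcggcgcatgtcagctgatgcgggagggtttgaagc
Mcoln2: tccctgagctcaCACGTGgaccccattctg
Tpcn1 and Tpcn2, which encode the TPC channels, varied little between the libraries. Tpcn1 stood at 128 CPM with Dox and 118 CPM without (0.12, 0.002 to 0.24), and Tpcn2 at 12.3 and 13.4 CPM (-0.12, -0.49 to 0.24).

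**Figure D2:**
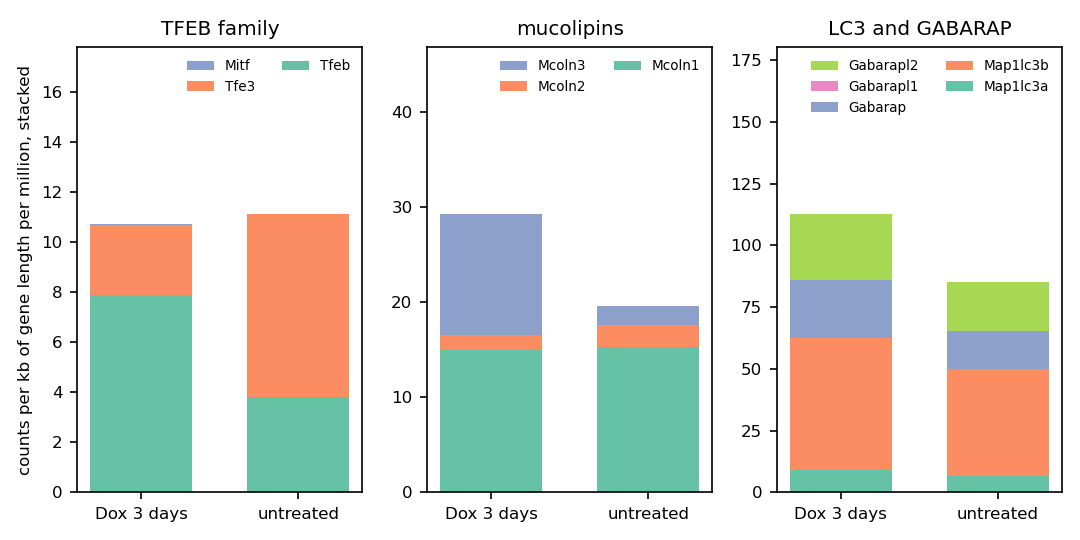
Stacked level per length (CPM per kilobase of gene length) of the TFEB family, the mucolipins and the LC3 and GABARAP family, with the Dox library left and the untreated library right in each panel. The TFEB total is near 11 in both libraries with Tfeb and Tfe3 exchanging places, and Mcoln3 is 12.8 of 29.3 with Dox and 2.08 of 19.7 without.

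Among the enzymes that act on glycans and sulfate groups, Arsb alone was past 1.5-fold. Arsb encodes arylsulfatase B, which removes sulfate from dermatan and chondroitin sulfate. It had 162 counts in the Dox library and 14 in the untreated library, or 11.4 and 1.84 CPM. This was a 5.71-fold higher level (log2 ratio 2.51, 1.84 to 3.53). Its paralogue Arsa, the sulfatase of sulfatides, was at 4.22 and 3.42 CPM (0.29, -0.38 to 1.03).

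The other 11 genes of this class had ratios between -0.25 and 0.31, and the class median over all 12 was 0.22, or 0.12 with Dox counts thinned to the untreated total. The intervals lay above 0 for Glb1, the beta-galactosidase of gangliosides, at 60.8 CPM with Dox and 51.4 CPM without (0.24, 0.07 to 0.42), and for Ids, the iduronate sulfatase, at 33.0 and 27.5 CPM (0.26, 0.02 to 0.50). The interval lay below 0 for Gaa, the acid alpha-glucosidase that breaks down glycogen, at 48.8 CPM with Dox and 57.1 CPM without (-0.23, -0.40 to -0.05). Intervals that include 0 were those of Naglu (0.31) and Idua (-0.25), which act on heparan sulfate, and of Hexa (0.21), Galc (0.23) and Gla (0.03), which act on glycolipids. The same held for the glucuronidase gene Gusb (-0.05) and the sialidase gene Neu1 (-0.12). The ratio of Gla was -0.02 when total counts set the scale. Summed over the class, the level was 394 CPM with Dox and 385 CPM without, a ratio of 0.03 (-0.03 to 0.10). The spans of Glb1 and Idua overlap the counted genes Tmppe and Dgkq.

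Of the genes of lysosomal lipid breakdown, Lipa alone was past 1.5-fold with at least 5 CPM. It encodes the acid lipase of cholesteryl esters and triglycerides. Lipa stood at 114 CPM in the Dox library, against 66.4 CPM in the untreated library, a 1.72-fold higher level (log2 ratio 0.78, 0.64 to 0.93). Psap, the precursor of the saposins that present sphingolipids to their hydrolases, had the highest level per length of all 51 genes in both libraries. It stood at 391 CPM with Dox and 328 CPM without (0.25, 0.18 to 0.32). Asah1, the acid ceramidase gene, was slightly lower at 25.2 and 30.5 CPM (-0.27, -0.52 to -0.03), and its span overlaps Frg1, a counted gene with 1449 and 702 counts. Smpd1, the acid sphingomyelinase gene, had the highest ratio of the class, 1.10, but from 27 counts with Dox and 6 without, under the 5 CPM minimum. Its interval, -0.04 to 2.83, was too wide at this depth to show a direction.

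Of the protease genes, 9 of 9 measured members had ratios above 0, and 8 intervals lay wholly above it, beside 51.2% and 24.8% of all genes. Their median log2 ratio was 0.43, and their summed level was 961 CPM with Dox and 736 CPM without. Ctss, a cysteine cathepsin of antigen-presenting cells that cleaves the invariant chain, had 123 counts in the Dox library and 23 in the untreated library, or 8.65 and 3.03 CPM. This was a 2.75-fold higher level (1.46, 0.86 to 2.22). Lgmn encodes legumain, an asparaginyl endopeptidase that also matures cathepsins. It stood at 28.7 CPM in the Dox library, against 13.0 CPM in the untreated library, a 2.19-fold higher level (1.13, 0.82 to 1.47). Ctsc, the dipeptidyl peptidase that activates granzymes, stood at 55.4 and 36.7 CPM, a 1.51-fold higher level (0.59, 0.39 to 0.80).

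The other measured proteases had smaller ratios. Ctsb, a cysteine protease, was at 332 CPM with Dox and 247 CPM without (0.43, 0.35 to 0.51), and Ctsd, the main aspartic protease, was at 249 and 191 CPM (0.38, 0.29 to 0.47). Ctsl stood at 35.7 and 24.5 CPM (0.54, 0.30 to 0.80). Smaller ratios were found for Ctsz at 0.27 (0.10 to 0.44), for Ctsa, the carboxypeptidase that protects the galactosidase and sialidase enzymes, at 0.17 (0.04 to 0.29), and for the tripeptidyl peptidase gene Tpp1 at 0.13 (-0.03 to 0.30). Ctsh had 1 count with Dox and 0 without, under the detection limit of each library. Ctsb and Ctsz overlap the counted genes Fdft1 and Nelfcd.

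Ctss, Lgmn and several other members are abundant in macrophages and other phagocytes, whose markers were therefore measured beside them. Of 18 macrophage and myeloid markers, 3 had at least 1 CPM in the mean, and the list summed to 25.9 CPM in the Dox library and 20.5 CPM in the untreated library. The defining macrophage genes were low, with Csf1r at 8 counts in the Dox library and 4 in the untreated library, Adgre1 at 5 and 2, and C1qa at 3 and 1. Marco, Mpo, Elane and S100a8 had 0 counts in both. Cd5l had 11 counts with Dox and 0 without, Vcam1 14 and 3, and S100a9 0 and 1. C1qb, C1qc, Cd14, Fcgr3 and Mertk had at most 2 counts in each library. The measured markers differed in direction, since Itgam stood at 14.7 CPM with Dox and 8.42 CPM without, Cd68 at 6.19 and 3.29 CPM, and Lyz2 at 1.69 and 7.24 CPM. Of 12 B cell and dendritic markers, 3 were measured, Cd74, H2-Aa and H2-Ab1, and the list summed to 53.0 CPM with Dox and 118 CPM without. Cd79a, a B cell receptor gene, had 2 counts in each library. Of 10 erythroid and platelet markers, 3 had at least 1 CPM in the mean, and the list summed to 6.68 and 5.26 CPM. Pf4, a platelet gene, had 0 counts in both. The part of other cells in the members' ratios was not tested.

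Of the genes of sterol transfer and of the lysosomal membrane, Scarb2 was past 1.5-fold, Npc1, Npc2 and Lamp1 had ratios between 0.21 and 0.25, and Lamp2 was slightly below 0. Npc1 and Npc2 pass cholesterol out of the lysosome. Npc2 was at 338 CPM with Dox and 289 CPM without (0.22, 0.15 to 0.30), and Npc1 at 44.1 and 38.2 CPM (0.21, 0.005 to 0.41), in a span that overlaps the counted gene Rmc1. Lamp1, which had the highest level per length of this class in both libraries, was at 290 and 244 CPM (0.25, 0.17 to 0.33). Its relative Lamp2 was at 95 and 102 CPM (-0.11, -0.23 to 0.02). Scarb2, whose product LIMP-2 carries glucocerebrosidase to the lysosome, stood at 127 CPM in the Dox library, against 81.4 CPM in the untreated library, a 1.56-fold higher level (0.64, 0.51 to 0.78).

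Of the 12 autophagy members, Gabarap alone was past 1.5-fold. The LC3 and GABARAP proteins are ubiquitin-like proteins that are attached to lipid on the forming autophagosome. Gabarap stood at 26.4 CPM in the Dox library, against 17.1 CPM in the untreated library, a 1.54-fold higher level (log2 ratio 0.62, 0.34 to 0.93). Gabarapl2 was at 26.3 and 19.6 CPM (0.42, 0.15 to 0.71), and Map1lc3b at 90.9 and 74.3 CPM (0.29, 0.15 to 0.44). Map1lc3a, with 127 and 49 counts, had a ratio of 0.46 (-0.02 to 0.98).

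Sqstm1 encodes p62, which ties ubiquitinated cargo to LC3 and is itself broken down by autophagy. It stood at 175 CPM with Dox and 136 CPM without (0.36, 0.26 to 0.47). Gabarapl1 had 0 counts in both libraries, which by counting error alone leaves room for up to 0.211 CPM with Dox and 0.395 CPM without. Its span overlaps the counted gene 1700101I11Rik, which also had 0 counts in both. Whether overlapping or shared reads of Gabarapl1 went uncounted was not tested. Per length the family summed to 113 CPM per kilobase with Dox and 85.4 without, with Map1lc3b as the largest share at 47.1% and 50.9%. RefSeq lists 14 pseudogenes named after this family and the count table holds 0 of them, so reads shared with such copies make these values uncertain.

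The genes that start autophagosomes and conjugate LC3 had ratios between -0.06 and 0.35, which overlap those of the LC3 and GABARAP genes. Ulk1, the initiating kinase, was at 148 CPM with Dox and 123 CPM without (0.27, 0.16 to 0.38). Intervals including 0 were found for Becn1, of the lipid kinase complex, at 0.06 (-0.05 to 0.17), which was -0.001 with thinned Dox counts, and for Wipi1, which binds the lipid it makes, at 0.35 (-0.67 to 1.55) from 27 and 11 counts. The same was found for the conjugation genes Atg16l1 at 0.10 (-0.10 to 0.31), Atg7 at 0.004 (-0.20 to 0.21) and Atg5 at -0.06 (-0.25 to 0.12). With total counts as the scale, the ratio of Atg7 was -0.04. The median of the 11 measured autophagy members was 0.29. Of their intervals 5 lay above 0 and 0 below, beside 24.8% and 22.3% of all genes.

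**Figure D3:**
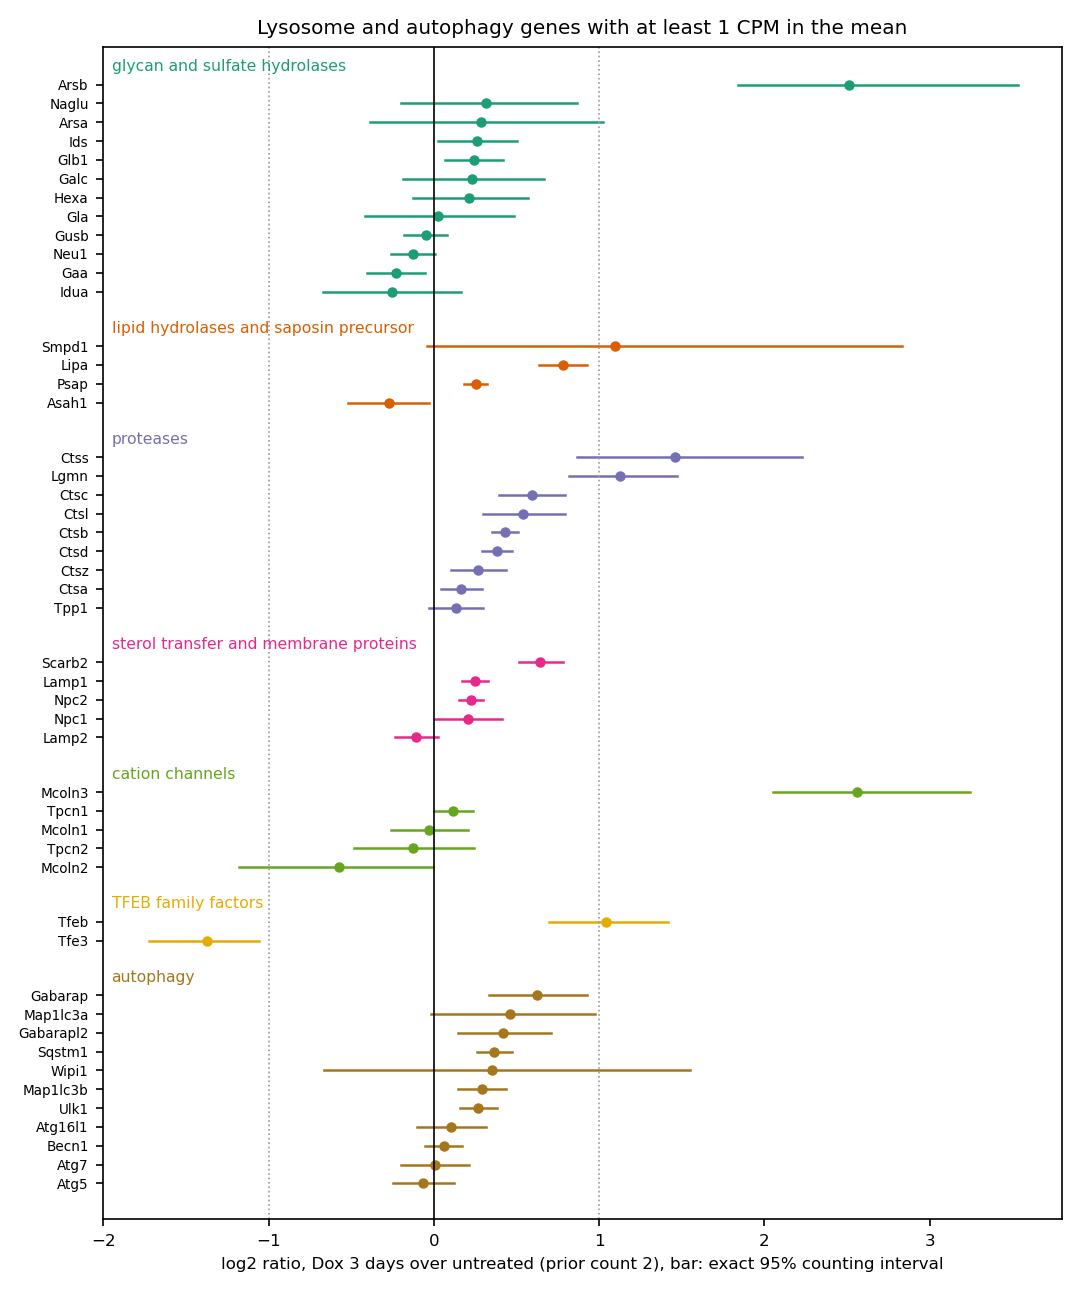
Log2 ratio of Dox over untreated for the 48 members with at least 1 CPM in the mean, by class, with points for the ratio, bars for the exact 95% counting interval and dotted lines at 2-fold. Most points lie between 0 and 1, Arsb and Mcoln3 lie past 2.5, and Tfe3 lies at -1.37.

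The members' levels kept nearly the same order in both libraries. Over the 48 measured members, Spearman's rho between the levels per length was 0.955, and it was 0.976 over the 11498 genes, in each case across genes of the same 2 libraries. Psap, Lamp1, Ctsd, Npc2 and Sqstm1 took ranks 1 to 5 with Dox and without, from 143 down to 87.6 CPM per kilobase with Dox and from 120 down to 68.0 without. Scarb2 ranked 8 with Dox and 11 without.

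Other genes of the same organelle and process, also listed with earlier results of these data known, had a lower median ratio than the members. Of 146 such genes in 8 lists, 131 had at least 1 CPM in the mean, with a median log2 ratio of 0.09. Of the 126 with at least 5 CPM in the library that was higher, 6 were higher by 1.5-fold or more and 4 were lower by as much, beside 6.28% and 6.18% of all genes. In each direction 1 was past 2-fold, beside 2.21% and 2.24%. The 131 genes had 44 intervals above 0 and 16 below, beside 24.8% and 22.3% of all genes. By summed counts the 146 genes were closer to the members, with a ratio of 0.20 (0.18 to 0.21) beside 0.25 (0.23 to 0.28). By list this summed ratio ran from -0.05 for enzyme sorting to 0.42 for other lysosomal membrane proteins.

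The V-ATPase, the proton pump that acidifies lysosomes, had the highest median of the 8 lists, 0.18 over 18 measured genes. Atp6v1d at 0.58 (0.41 to 0.75), Atp6v0e at 0.38 (0.21 to 0.56) and Atp6ap1 at 0.33 (0.18 to 0.48) stood higher, and Tcirg1, which encodes the a3 subunit, was at 36.8 CPM with Dox and 61.1 CPM without (-0.73, -0.91 to -0.55). Other hydrolases and activators had a median of 0.06 over 25 genes, which was -0.01 with Dox counts thinned to the untreated total. Among them Gm2a, the activator protein of the hexosaminidases, stood at 38.0 CPM with Dox and 20.8 CPM without (0.86, 0.61 to 1.13), and Naaa at 0.69 (0.27 to 1.16). Lower in that list were the peptidase gene Cpq at 5.06 and 11.1 CPM (-1.10, -1.60 to -0.66) and Ifi30, a thiol reductase of antigen processing, at -0.64 (-1.01 to -0.29).

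Genes that sort enzymes to lysosomes had a median of -0.02 over 9 genes and ratios between -0.23 and 0.17. Those farthest from 0 were Gga2 at -0.23, Nagpa at -0.20, Gnptab at -0.17 and Sumf1 at 0.17. Other lysosomal membrane proteins had a median of 0.08 over 21 genes. Laptm5, a lymphocyte protein that sends antigen receptors to the lysosome, had the highest level per length of that list and stood at 933 CPM with Dox and 523 CPM without (0.84, 0.78 to 0.89). Ctns stood at 0.55, Cd164 at 0.46 and Ostm1 at 0.43. The Rag, Ragulator and folliculin genes, which recruit mTORC1, had a median of 0.15 over 10 genes, and of 0.06 with no minimum level. Lamtor5 stood at 0.39, Lamtor2 at 0.36 and Lamtor3 at 0.28, and Rragd, a target of the TFEB family in mice and humans, at 8.08 CPM with Dox and 12.6 CPM without (-0.63, -1.05 to -0.24).

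The other autophagy core genes had a median of 0.11 over 25 genes, and the autophagy receptors also one of 0.11 over 9. Retreg1, the receptor for autophagy of the endoplasmic reticulum, stood at 50.6 CPM with Dox and 24.9 CPM without, with a ratio of 1.02 (0.79 to 1.26). Next to it among the receptors were Calcoco1 at 0.64 (0.42 to 0.87), Tollip at 0.29 and Tax1bp1 at 0.12. In the core list the ratios farthest from 0 were those of the LC3 proteases Atg4a at 0.88 (0.36 to 1.49) and Atg4d at 0.57 (0.34 to 0.80), of the lipid scramblase gene Atg9a at 0.52 and of Atg14 at -0.34. Genes of lysosome fusion and transport had a median of 0.04 over 14 genes, which was -0.01 with total counts, and were led by Snap29 at 0.50, Plekhm1 at 0.49, Vps39 at 0.32 and Arl8a at 0.24.

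**Figure D4:**
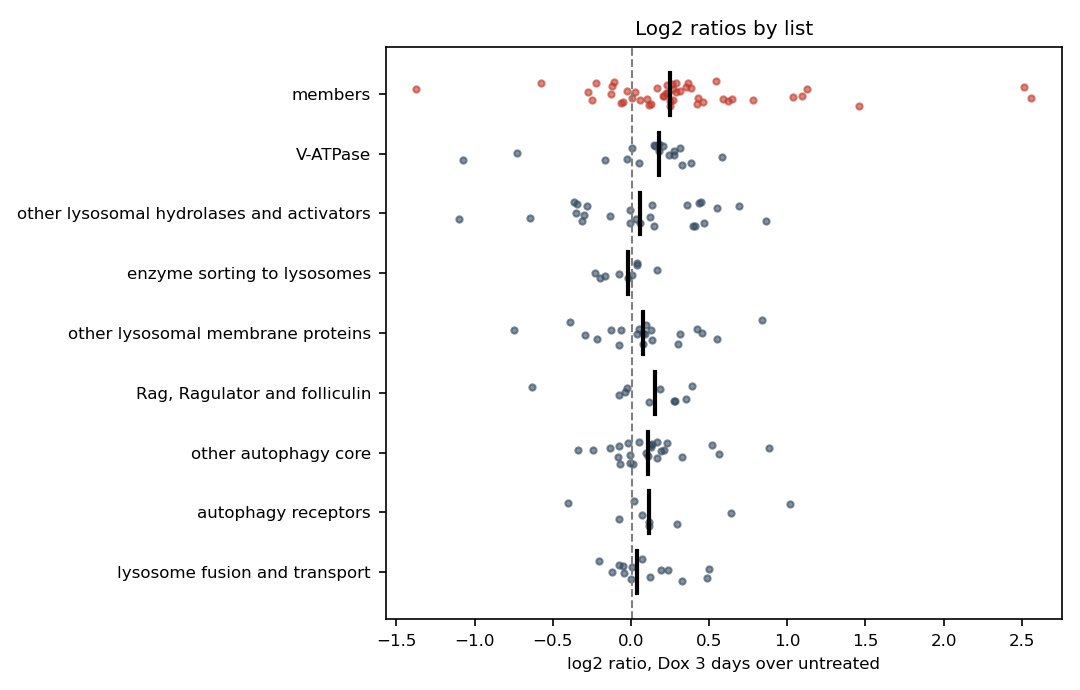
Log2 ratio of Dox over untreated for genes with at least 1 CPM in the mean, the members on top and the 8 other lists below, with 1 point per gene, a black bar at each list's median and a dashed line at the median of all genes (0.01). The members' median is 0.25 and those of the other lists range from -0.02 to 0.18.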

How the data were processed

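The authors' deposited files hold raw counts of reads, 1 whole number for every gene, and a gene length in bases. Per the submitters' processing notes, CASAVA 1.8.2 and featureCounts were used with the mm10 build. The aligner, annotation, strand setting and handling of shared reads are not stated in the sources used here. The same holds for how the 3 mice of a group and the 2 sequencing runs became 1 column. The series table and the single-library files had 0 differing values.

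Counts were scaled with TMM factors (0.984 for Dox, 1.02 for untreated) of edgeR 4.0.16 in R 4.3.3. Symbols came from a RefSeq table of GRCm38.p6, and 1904 of 27179 genes had none. Levels are compared between genes only per kilobase of the deposited length. Members, gene lists and rules were chosen with earlier results of these data known. All members are named, in full those past 1.5-fold whose higher library reached 5 CPM and the TFEB family, and from each other list up to 4 genes with the largest absolute ratio past that minimum. The calculation of ratios and intervals was also tried on a simulated pair of libraries drawn with counting error only. That trial cannot show how the intervals behave under differences between mice, sorts or library preparations. Python 3.11.15, numpy 2.4.6, pandas 2.3.3, scipy 1.17.1, statsmodels 0.14.6 and matplotlib 3.10.9 were used, and DESeq2 1.42.0 gave alternative size factors.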

Additional observations from a re-analysis of the deposited data

How the results depend on the processing

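Processing was varied in 13 ways: scaling by DESeq2 or by total counts, a prior count of 0.5 or 5, other CPM minimums, interval bounds, thinned Dox counts and a length trend. No member past 1.5-fold changed direction. With total counts the ratios of members were lower by up to 0.05 on the log2 scale, and by least for Ctsh and Mitf, while Gabarapl1 stayed at 0. The members at least 2-fold higher (5) numbered 3 with a 20 CPM minimum and 2 by the interval bound nearest to 0. Those at least 1.5-fold higher (9) ranged from 6 to 11, with 7 under total counts or a 20 CPM minimum. The members at least 1.5-fold lower (1) numbered 2 with total counts or a prior count of 0.5. The members' median ranged from 0.21 to 0.25. The glycan and sulfate class median ranged from 0.12 to 0.22, that of the Rag, Ragulator and folliculin genes from 0.06 to 0.17, that of the other hydrolases from -0.01 to 0.06, and the ratio of Becn1 from -0.001 to 0.06. The lipid class median was 0.25 with at least 5 CPM in the mean, and the TFEB family median was 1.04 with no minimum, because Mitf with 3 counts then entered. In the other lists, 2-fold higher genes (1) numbered 0 with total counts, 2 with no minimum and 0 by the interval bound. Their 2-fold lower genes (1) numbered 2 with a 1 CPM minimum, 0 at 20 CPM, 3 with none and 0 by the bound. Their 1.5-fold higher genes (6) numbered 10 with no minimum and 3 by the bound, and their 1.5-fold lower genes (4) numbered 1 at 20 CPM, 8 with none, 1 by the bound and 2 with thinned counts. Where not given here, the cause of a difference was not tested. With 1 library per group, differences between mice, sorts or library preparations are not covered. No paired analysis was possible because each group has 1 library.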
